A study of Mus musculus with 6 samples.

Results

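The C/EBP transcription factor genes *Cebpa*, *Cebpb*, *Cebpd*, *Cebpe* and *Cebpg*, together with *Spi1* and *Gfi1*, were followed by RNA-Seq through the differentiation of mouse Naive CD4+ T cells into Th17 and Th1 cells. These 7 genes, of 24223 in the count files, were taken by symbol. The set was selected on the measured fold changes of *Cebpe*, which had been seen to go in opposite directions in Th17 and Th1 versus Naive, so the values of *Cebpe* are given as a description, without a test, and *Cebpe* is left out of the counts below. All 7 had enough counts to be tested, as had 13607 of the 24223 genes.

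The study compared the transcriptome and chromatin of Naive cells with those of the T helper cells made from them, and 2 RNA-Seq libraries of each of the 3 cell types are described here. Naive CD4+CD44- T cells were purified by an isolation kit from pooled lymph nodes and spleens of C57BL/6 mice that were 1 to 2 months old, and the Naive libraries come from cells that had not been activated. Both Th groups started from such cells, were activated through CD3 and CD28 and were collected on the fifth day of culture. The Th1 cultures received anti-IL-4, IL-12 and IL-2, and the Th17 cultures received anti-IL-4, anti-IFN-γ, TGF-β, IL-6, IL-1β and IL-23. No gene was deleted or introduced. Activation, culture and cytokines therefore differ together between Naive and either Th group, and their effects cannot be told apart.

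C/EBP proteins are basic leucine zipper factors that bind DNA as dimers with each other. C/EBPα (*Cebpa*) commits progenitors to the granulocyte and monocyte lineages, C/EBPε (*Cebpe*) drives the late, granule-forming stages of granulocyte maturation, C/EBPβ (*Cebpb*) and C/EBPδ (*Cebpd*) are induced by inflammatory cytokines such as IL-6, and C/EBPγ (*Cebpg*), which lacks a classical activation domain, is widely expressed. *Spi1* encodes PU.1, an ETS factor of myeloid and B cells that is shut off when T cells commit to their lineage, and *Gfi1* encodes a zinc finger repressor that works in T cells as well as in granulocyte precursors.

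The sequences below are shown because they carry the letters of a C/EBP site, a CCAAT box or a PU.1 site. They lie before RefSeq starts of genes whose expression is described further on. The CCAAT box was searched apart from the C/EBP site and is not taken as one. Promoter sequences came from RefSeq (GRCm38.p6), and the 250 bases before each start were searched on both strands for TTGCNNAA, a C/EBP site, for CCAAT, and for GAGGAAGT, a PU.1 site. Each line gives at most 30 bases around a match, 5′ to 3′ on the strand of the gene, with the match in capitals. RefSeq starts can differ from those of GENCODE, the annotation used for gene positions. By GENCODE, the matches shown for *Gfi1*, *Lcn2* and *Prtn3* and the proximal match of *Ngp* fall within the gene. The first set holds the C/EBP match of *Gfi1* and both CCAAT matches of *Cebpg*, the next the C/EBP matches of genes of the secondary (late) neutrophil granules, and the last the PU.1 matches of genes of the primary (early) granules.
*Gfi1* (chr5:107725930-107725959, - strand): cgaaggtaggtTTGCTGAActgctgtgcct
*Cebpg*, distal (chr7:35056640-35056666, - strand): cacggcctgtgATTGGctggtggagct
*Cebpg*, proximal (chr7:35056579-35056605, - strand): gcagcgcttctATTGGtcacggcggcg
*Ltf* (chr9:111019206-111019235, + strand): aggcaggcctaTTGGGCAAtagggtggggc
*Ngp*, distal (chr9:110419659-110419688, + strand): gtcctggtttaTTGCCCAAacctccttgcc
*Ngp*, proximal (chr9:110419786-110419807, + strand): accggcagttcTTGGGCAAggc
*Lcn2* (chr2:32387937-32387966, - strand): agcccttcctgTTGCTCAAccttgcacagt
*Mmp8* (chr9:7558399-7558428, + strand): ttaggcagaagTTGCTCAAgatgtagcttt
*Mpo* (chr11:87793549-87793578, + strand): gtggagagagaGAGGAAGTtgcctttgtcc
*Elane* (chr10:79886216-79886245, + strand): cgtgtcccaggGAGGAAGTagggctgtggc
*Prtn3* (chr10:79879561-79879590, + strand): caaactggaagGAGGAAGTgggacccacag

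Among all 32851 promoters searched, 9.56% held the C/EBP letters, 33.8% CCAAT and 2.44% the PU.1 letters. Of the genes described here, 4 had promoter entries (*Cebpa*, *Cebpb*, *Cebpg* and *Gfi1*), which came to 5 promoters because *Gfi1* has 2 starts. The C/EBP letters stood in 1 of these 5 promoters, from -143 to -136 relative to a start of *Gfi1*, CCAAT in 1, that of *Cebpg*, and the PU.1 letters in none. In the list of 33 target genes used below, 26 had entries, with 27 promoters, of which 9 (33.3%) held the C/EBP letters, 7 (25.9%) CCAAT and 5 (18.5%) the PU.1 letters. In *Ltf* the C/EBP match overlapped a CCAAT match, both read on the strand opposite to the gene. Besides the genes shown, the PU.1 letters stood before *Mmp8*, a secondary granule gene, from -221 to -214. They also stood before *S100a8*, from -172 to -165. *Camp*, another secondary granule gene, had no match to the C/EBP letters. A match describes letters and not binding, and these genes were listed for being known targets.

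*Cebpa* and *Cebpg* are neighbours on chromosome 7 of GRCm38. *Cebpg* lies on the - strand at chr7:35046422-35056573 and *Cebpa* on the + strand at chr7:35119293-35121928, with 62.7 kb between them. *Spi1* (chr2:91082390-91115756) and *Cebpb* (chr2:167688915-167690418) share chromosome 2. The other 3 lie on chromosomes of their own, *Cebpd* at chr16:15887286-15891031, *Cebpe* at chr14:54710360-54712174 and *Gfi1* at chr5:107716657-107726036. Exons of *Tmem189* cover 20.7% of those of *Cebpb*, and exons of *Spidr* cover 15% of those of *Cebpd*, each on the opposite strand. The strand setting of the authors' count is not settled by the sources, so reads from these neighbours may be held in the counts of *Cebpb* and *Cebpd*, and their part was not tested.

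Between 17742158 and 69080017 reads per library fell on genes, with replicate 1 the deeper library in each cell type. Levels are given as CPM, counts scaled to a common library total after TMM normalization. T cell markers summed to between 2405 and 3757 CPM in the 6 libraries, *Il17a* stood at 526 and 691 CPM in Th17 and below 0.6 CPM elsewhere, and *Tbx21*, the T-bet gene, at 138 and 158 CPM in Th1 and below 24 CPM elsewhere, so each Th group carried its defining markers. The 4 markers of naive T cells summed to 2268 and 3521 CPM in Naive, 2629 and 2324 CPM in Th17, and 1833 and 3453 CPM in Th1 and did not set the Naive libraries apart. The Naive libraries differed from each other in erythroid genes and in markers of other cell types. The 5 erythroid markers summed to 570 CPM in the first Naive library, to 103 CPM in the other, and to at most 1.81 CPM in the other 4 libraries, although *Hba-a1* and *Hbb-bs* were listed at 0 in all of them. Naive replicate 1 was also higher than replicate 2 in markers of mast cells, basophils and eosinophils (203 against 53.1 CPM), neutrophils (313 against 190 CPM) and macrophages (33.9 against 14.3 CPM). Most of these neutrophil sums came from *Mpo* (251 and 159 CPM) and *Elane* (57.3 and 29.6 CPM). Only 3 of the 11 neutrophil markers were above 1 CPM in each Naive library. Most of the macrophage sums came from *Lyz2* (25.8 and 8.91 CPM). Naive replicate 1 was lower in T cell markers (2405 against 3049 CPM). Where leaving out Naive replicate 1 or any other library ended a call for a gene named below, the value without it is given. In bulk samples such as these, fewer cells of a type and less RNA per cell cannot be told apart.

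*Cebpe* was at its highest in Th17 and almost silent in Th1. Its level was 3.48 and 1.58 CPM in Naive, 28.7 and 19.6 CPM in Th17, and 0.340 and 0.253 CPM in Th1. The Th1 values rest on 22 and 4 counts, against 237 and 32 counts in Naive and 1876 and 346 in Th17. All Th17 libraries lay above, and all Th1 libraries below, both Naive libraries. Groups lay apart in 65.5% of all genes tested for Th17 versus Naive and in 56.0% for Th1 versus Naive. The fitted log2 fold change was 3.22 (standard error 0.47) in Th17 versus Naive and -3.04 (0.53) in Th1 versus Naive. Between Th1 and Th17 it was -6.27 (0.57), a 77.0-fold lower level in Th1. Without Naive replicate 1, the changes against Naive were 3.93 and -2.34.

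**Figure D1:**
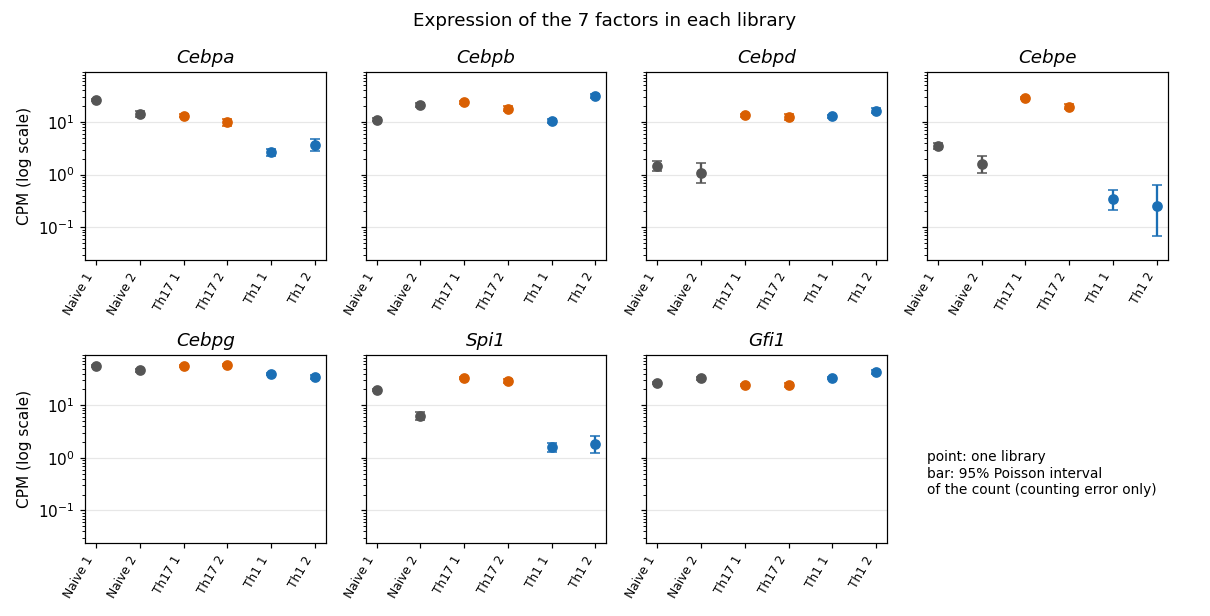
Expression of each of the 7 genes in the 6 libraries, in CPM on a log axis shared by all panels, with 95% Poisson intervals of the counts, which cover counting error only. Naive libraries are grey, Th17 orange and Th1 blue. *Cebpe* spans the widest range, from 0.253 to 28.7 CPM, *Cebpd* is low only in Naive, and *Cebpg* stays between 34.0 and 58.3 CPM.

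*Spi1* was lowest in Th1 as well. Its levels were 19.5 and 6.29 CPM in Naive, 33.2 and 28.9 CPM in Th17, and 1.61 and 1.83 CPM in Th1. Both Th17 libraries lay above and both Th1 libraries below the Naive libraries, which themselves were 3.10-fold apart. By edgeR's quasi-likelihood test with Benjamini-Hochberg adjustment over all genes, *Spi1* was 18.2-fold lower in Th1 than in Th17 (log2 fold change -4.18, standard error 0.54, adjusted p = 0.0012). It fell by 2.93 on the log2 scale in Th1 versus Naive (standard error 0.52, adjusted p = 0.0044 by edgeR). The log2 fold change of 1.26 (0.47) in Th17 versus Naive had an adjusted p of 0.095 by edgeR and was not called at the threshold used throughout, an adjusted p under 0.01 with a log2 fold change beyond 1 in either direction.

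Both comparisons of *Spi1* with Naive turned on Naive replicate 1. Without it, the log2 fold change in Th1 was -1.88 (edgeR adjusted p = 0.014), no longer called, and that in Th17 was 2.30 (edgeR adjusted p = 0.0095), now called. The fall in Th1 versus Naive was also not called when any of Th17 replicate 1 (-2.92), Th1 replicate 1 (-2.78) or Th1 replicate 2 (-3.01) was left out. The difference between Th1 and Th17 remained called when each library was left out in turn, with log2 fold changes from -4.27 to -4.08.

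The mean level of *Cebpa* decreased in the order Naive, Th17 and Th1, and with all libraries only the fall from Naive to Th1 was called. The replicates had 25.9 and 14.2 CPM in Naive, 13.3 and 9.84 CPM in Th17, and 2.65 and 3.73 CPM in Th1. No library of one group reached into the range of another, though Naive replicate 2 and Th17 replicate 1 lay close together. Such separation was common, in 65.5% of all genes tested for Th17 versus Naive, 56.0% for Th1 versus Naive and 66.6% for Th1 versus Th17. *Cebpa* fell by 2.67 on the log2 scale in Th1 versus Naive (standard error 0.43, edgeR adjusted p = 0.0028), a 6.37-fold change. Without Naive replicate 1 the change was -2.17 (edgeR adjusted p = 0.013), and without Th1 replicate 1 it was -2.38 (edgeR adjusted p = 0.017), neither of them called. In Th1 versus Th17 the log2 fold change was -1.88 (0.42), which was not called with an edgeR adjusted p of 0.016. It was called when either Naive library was left out of the model, at -1.89 without replicate 1 and -1.87 without replicate 2. The log2 fold change in Th17 versus Naive was -0.79 (95% interval -1.68 to 0.10, edgeR adjusted p = 0.19).

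*Cebpd* had the reverse pattern, low in Naive and higher in both Th groups. It had 1.47 and 1.09 CPM in Naive, 13.5 and 12.6 CPM in Th17, and 12.8 and 16.5 CPM in Th1, so the Naive libraries stood apart from the other 4. *Cebpd* rose 10.05-fold in Th17 (log2 fold change 3.33, standard error 0.39, edgeR adjusted p = 6.8e-04) and 11.2-fold in Th1 (3.49, 0.39, edgeR adjusted p = 4.4e-04), each versus Naive. These 2 comparisons share the Naive libraries. Every alternative setting, including leaving out each library, kept both calls. Th1 and Th17 overlapped, and the log2 fold change between them was 0.16 with a 95% interval from -0.62 to 0.94. The sign of this difference turned to -0.062 under scaling by library size alone and to -0.019 without Th1 replicate 2.

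*Cebpb* was not called in any comparison, and its replicates were far apart. The replicates had 11.04 and 21.1 CPM in Naive, 23.6 and 17.9 CPM in Th17, and 10.4 and 31.1 CPM in Th1. The groups overlapped in all 3 comparisons, and the pair of Th1 replicates spanned all other values. The 95% interval of the log2 fold change ran from -0.75 to 1.5 in Th17 versus Naive, from -0.76 to 1.49 in Th1 versus Naive, and from -1.13 to 1.11 in Th1 versus Th17. Leaving out single libraries turned the sign of each of these changes, so no direction is given for *Cebpb*.

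*Cebpg* varied least among the C/EBP genes. It had 56.4 and 46.4 CPM in Naive, 55.6 and 58.3 CPM in Th17, and 39.1 and 34.0 CPM in Th1, where both libraries lay below the other 4. The log2 fold change was -0.49 (95% interval -1.07 to 0.09, edgeR adjusted p = 0.24) in Th1 versus Naive and -0.64 (-1.22 to -0.06, edgeR adjusted p = 0.12) in Th1 versus Th17. In Th17 versus Naive it was 0.15, with an interval from -0.43 to 0.72. None of these was called. The counts of *Cebpa* per count of *Cebpg*, its neighbour on chromosome 7, were 0.460 and 0.305 in Naive, 0.239 and 0.169 in Th17, with 0.0676 and 0.110 in Th1. This ratio was thus lower in Th17 than in Naive and lowest in Th1.

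*Gfi1* ran opposite to *Cebpe* across the groups, over a narrow range. It had 26.99 and 32.6 CPM in Naive, 24.1 and 24.3 CPM in Th17, and 33.1 and 42.7 CPM in Th1, without overlap between groups. The log2 fold change was -0.30 (95% interval -0.93 to 0.33, edgeR adjusted p = 0.48) in Th17 and 0.35 (-0.28 to 0.98, edgeR adjusted p = 0.47) in Th1, each versus Naive. In Th1 versus Th17 it was 0.65 (0.01 to 1.28, edgeR adjusted p = 0.14), and no comparison was called. Groups that do not overlap were common with 2 libraries in each, in 65.5% of all genes tested for Th17 versus Naive, 56.0% for Th1 versus Naive and 66.6% for Th1 versus Th17.

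**Figure D2:**
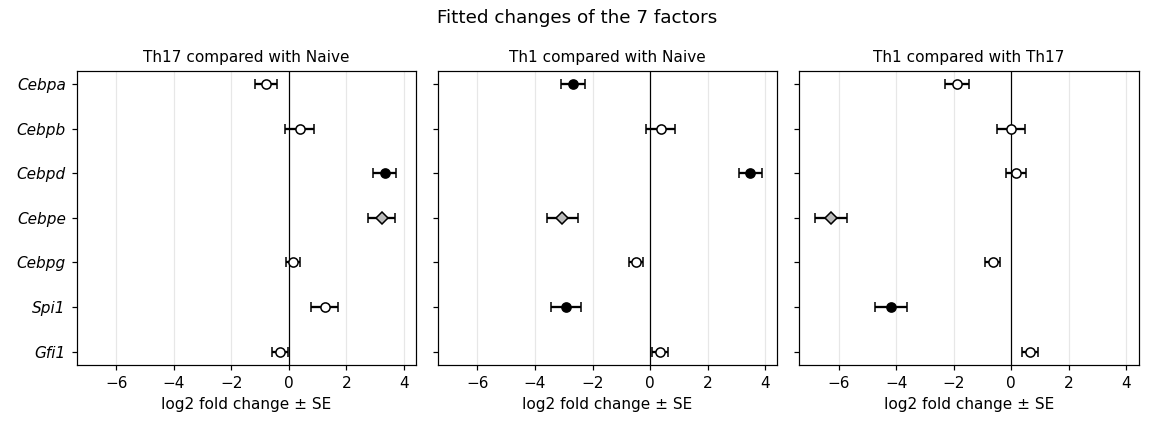
Fitted log2 fold changes of the 7 genes in the 3 comparisons, with standard errors as bars. Filled circles mark genes called at an adjusted p under 0.01 by edgeR with a log2 fold change beyond 1, open circles genes not called, and grey diamonds *Cebpe*, which was not tested. *Cebpd* is called in both comparisons with Naive, *Cebpa* and *Spi1* in Th1 versus Naive, and *Spi1* in Th1 versus Th17.

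Of the 6 genes other than *Cebpe*, 1 was called in Th17 versus Naive, where 5.43% of all genes tested were called. In Th1 versus Naive 3 were called, against 7.45% of all genes, and in Th1 versus Th17 1 was called, against 5.53%. Without Naive replicate 1 these counts were 2, 1 and 2, with *Spi1* added in Th17 versus Naive, *Cebpa* and *Spi1* lost in Th1 versus Naive, and *Cebpa* added in Th1 versus Th17. In Th1 versus Naive only *Cebpd* was called without Th1 replicate 1, and in Th1 versus Th17 *Cebpa* was added without Naive replicate 2.

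The order of the genes within a cell type was compared per length, as CPM per kb of exon. In Th17 *Cebpe* stood first with 19.5 ± 5.20 CPM per kb (SD, n = 2), above *Cebpb* (13.8 ± 2.70) and *Spi1* (11.5 ± 1.12), which overlapped each other, and *Cebpd* stood last with 3.49 ± 0.169. In Th1 *Cebpe* stood last with 0.239 ± 0.0498 CPM per kb, below *Spi1* (0.639 ± 0.0589) and *Cebpa* (1.21 ± 0.291), and *Cebpb* and *Gfi1* overlapped at the top with 13.8 ± 9.71 and 11.9 ± 2.12. In Naive the first 6, from *Cebpb* (10.7 ± 4.73) to *Cebpe* (2.04 ± 1.08), each overlapped the next, and only *Cebpd* (0.341 ± 0.0714) lay apart, at the bottom.

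As shares of the summed CPM per kb of the 5 C/EBP genes, *Cebpe* made up 9.22% and 4.37% in Naive, 40.3% and 34.9% in Th17, with 1.47% and 0.622% in Th1. *Cebpa* made up 32.4% and 18.4% in Naive and between 4.32% and 8.80% in the Th libraries. The sum itself was 30.4 and 29.2 CPM per kb in Naive, 57.4 and 45.1 in Th17, with 18.6 and 32.8 in Th1. Per count of *Cebpa* there were 0.134 and 0.112 counts of *Cebpe* in Naive, 2.16 and 1.99 in Th17, with 0.129 and 0.0678 in Th1, so the ratio of the genes was alike in Naive and the first Th1 library although both genes were lower in Th1. Per count of *Spi1* the counts of *Cebpe* were 0.178 and 0.252 in Naive, 0.865 and 0.677 in Th17, with 0.212 and 0.138 in Th1.

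**Figure D3:**
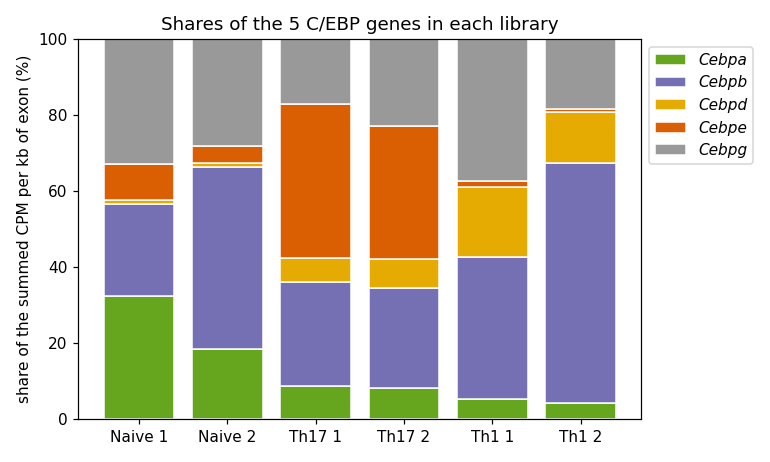
Share of each C/EBP gene in the summed CPM per kb of exon of the 5 genes, in percent, for each of the 6 libraries. *Cebpe* holds 40.3% and 34.9% in the Th17 libraries and at most 9.22% in the others, and *Cebpb* holds between 24.1% and 63.1%.

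Over the 6 libraries, Pearson's r of log2 CPM was 0.97 between *Cebpe* and *Spi1*, 0.91 between *Cebpe* and *Cebpg*, 0.66 between *Cebpe* and *Cebpa* and -0.93 between *Cebpe* and *Gfi1*. For *Cebpe* with *Cebpb* it was 0.07 and with *Cebpd* 0.02. These 6 points are 3 pairs of replicates that share a cell type, so the values describe the groups and carry no p-value. Of the 5 genes tested whose profile lay nearest to that of *Cebpe*, by the root mean square difference of centred log2 CPM, 4 are reported here. They were *Hp*, *Trem3*, *Mgst1* and *Gapt*, with differences from 0.23 to 0.49 and r from 0.99 to 1.00 over the 6 libraries. *Hp* encodes haptoglobin, *Trem3* a receptor of myeloid cells and *Mgst1* a microsomal glutathione transferase. *Hp*, the nearest, had 7.0 and 3.37 CPM in Naive, 52.0 and 49.8 CPM in Th17, and 0.572 and 0.443 CPM in Th1.

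**Figure D4:**
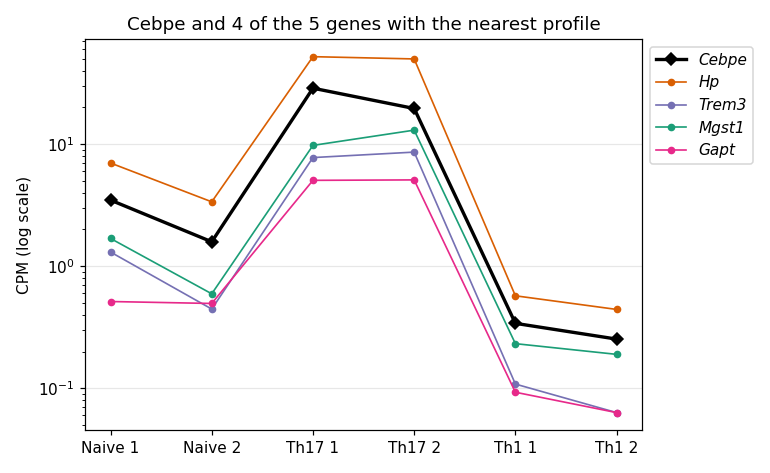
CPM of *Cebpe* (black) and of 4 of the 5 genes nearest to it in profile, on a log axis, in the 6 libraries. All of the genes drawn are highest in the Th17 libraries and lowest in the Th1 libraries, and lines join values only to guide the eye.

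The genes nearest to the others were of other kinds. For *Spi1* they were *Sema3d*, *B4galt6* and *P2ry2*, for *Cebpa* *Fbxo10*, *Mex3a* and *Epcam*, and for *Cebpb* *Cnbd2*, *S1pr1* and *Gm16861*. For *Cebpd* they were *Cend1*, *Cxcr6* and *Bend6*, for *Cebpg* *Tial1*, *Coil* and *Trit1*, and for *Gfi1* *Tbc1d10a*, *Rbm22* and *Atg7*. The distances were smallest for *Gfi1* (0.04) and *Cebpg* (from 0.06 to 0.08), whose own levels moved least, and ranged from 0.12 to 0.29 for the rest.

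A list of 30 regulators held relatives of the C/EBP factors, PU.1 and Gfi1, the Tribbles genes and corepressors of Gfi1. It also held transcription factors of myeloid cells and progenitors. In Th17 versus Naive 1 rose and 2 fell by edgeR, in Th1 versus Naive 4 rose and 5 fell, and in Th1 versus Th17 2 were higher in Th1. The median log2 fold change of the list was -0.58, -0.12 and 0.07, beside -0.02, -0.02 and -0.03 over all genes tested. With genes at the limit of detection in a group put at their bound, the second of these was -0.067. Among all genes, 4.01% were called higher and 1.43% lower in Th17 versus Naive, 4.64% and 2.81% in Th1 versus Naive, and 2.70% and 2.83% in Th1 versus Th17.

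Of the 7 basic leucine zipper relatives, *Nfil3* alone was called. It had 4.62 and 4.26 CPM in Naive, 37.4 and 24.5 CPM in Th17, and 45.6 and 42.0 CPM in Th1, and it rose in Th17 (log2 fold change 2.80) and in Th1 (3.30) versus Naive. *Ddit3*, which encodes the C/EBP homologous protein CHOP, had log2 fold changes of 0.63, -0.07 and -0.69 in the 3 comparisons, none called. Of the Tribbles genes, *Trib3* rose in Th1 versus Naive (1.88, edgeR adjusted p = 0.0073). Its log2 fold change in Th17 versus Naive was 1.76 with an edgeR adjusted p of 0.012. The call of *Trib3* in Th1 was lost when any library other than Th1 replicate 1 was left out, with values from 1.51 to 1.97. *Trib1* and *Trib2*, whose products promote the degradation of C/EBP proteins, were not called.

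Both ETS relatives of *Spi1* were scarce and highest in Th17. *Spib* had 0.660 and 0.149 CPM in Naive, 4.77 and 4.3 CPM in Th17, and 0.387 and 0.0632 CPM in Th1, with log2 fold changes of 3.35 (edgeR adjusted p = 0.019) in Th17 versus Naive and -4.06 (0.010) in Th1 versus Th17, neither called. *Spic* had at most 0.679 CPM in any library. Among the partners of *Gfi1*, the corepressor genes *Kdm1a* and *Rcor1* were not called. *Gfi1b*, the erythroid and megakaryocytic relative of *Gfi1*, had 40.7 and 5.6 CPM in Naive and between 0.866 and 2.39 CPM in the Th libraries, and fell by 4.57 on the log2 scale in Th1 versus Naive. It was not called without Naive replicate 1 (-2.51), Th1 replicate 1 (-4.297) or Th1 replicate 2 (-4.74).

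Among 15 other transcription factors of myeloid cells and progenitors, 2 were called in Th17 versus Naive, 6 in Th1 versus Naive and 2 in Th1 versus Th17. *Irf8*, a partner of PU.1, had 58.8 and 37.5 CPM in Naive, 30.6 and 28 CPM in Th17, and 172 and 128 CPM in Th1. It rose in Th1 versus Naive (1.64) and was higher in Th1 than in Th17 (2.36). The first call was lost without Naive replicate 2 (1.35), Th17 replicate 1 (1.64) or Th1 replicate 1 (1.46), and the second without Th17 replicate 1 (2.42) or replicate 2 (2.30). The early response genes *Egr1* and *Egr2* fell in Th17 versus Naive (-3.28 and -2.20), *Egr2* fell in Th1 (-2.29), and *Egr1* was higher in Th1 than in Th17 (5.17). In Th17 versus Naive, *Egr1* was not called without Naive replicate 2 (-3.03) or either Th17 library (-4.15 and -2.77), and *Egr2* not without any single Naive or Th17 library (-1.97 to -2.43). In Th1 *Egr2* was not called without Naive replicate 2 (-2.05) or Th1 replicate 1 (-1.94).

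The progenitor factors *Myb*, *Lmo2* and *Hoxa9* fell in Th1 versus Naive (-3.22, -4.55 and -5.55). *Myb* was not called without Naive replicate 1 (-2.66) or Th17 replicate 1 (-3.22), *Lmo2* without Th1 replicate 2 (-4.27), and *Hoxa9* without Naive replicate 1 (-4.23) or either Th1 library (-5.697 and -5.48). Their Naive replicates were 1.96-, 5.48- and 3.9-fold apart with replicate 1 the higher, as were those of *Gata1* (4.47-fold) and *Gfi1b* (7.27-fold), while the median ratio over all genes was 1.01. Between the Naive replicates these genes moved with the erythroid markers and with those of mast cells, basophils and eosinophils. The part of such cells or transcripts in the falls was not tested. Without Naive replicate 1, 4 regulators were called in Th1 versus Naive (*Nfil3*, *Irf8*, *Egr2* and *Lmo2*), and without Th1 replicate 1, 5 were. In Th17 versus Naive the count was 1 without either Th17 library, 6 without Th1 replicate 1 and 5 without Th1 replicate 2. In Th1 versus Th17 it was 1 without either Th17 library, 4 without Naive replicate 1 and 5 without Naive replicate 2.

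The second list held 33 genes known as targets of these factors. Of these, 20 rose and 1 fell in Th17 versus Naive, 11 rose and 8 fell in Th1 versus Naive, and 2 were higher and 18 lower in Th1 versus Th17. Their median log2 fold change was 3.69, 1.23 and -3.89. With genes that had 3 counts or fewer in each library of a group put at the bound that 3 counts per library allow, the first median was 3.23 and the others were as before. The list was written with earlier results of these data known and shares 9 of its genes with the 11 neutrophil markers in the files, so its counts describe these genes and nothing more.

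Genes of the secondary neutrophil granules, which C/EBPε is known to activate, had the highest median log2 fold change of the 6 roles in Th17 versus Naive, 9.91. *Ltf* (lactoferrin) had 0.191 and 0 CPM in Naive, 214 and 150 CPM in Th17, and 1.04 and 1.39 CPM in Th1. *Ngp*, encoding a granule protein of the cathelicidin family, had 0.294 and 0.0990 CPM in Naive, 266 and 190 CPM in Th17, and 4.25 and 12.5 CPM in Th1. All 5 genes of the group, with *Camp*, *Lcn2* and *Mmp8*, rose in Th17 versus Naive by log2 fold changes from 8.82 to 10.34, which rest on at most 20 counts in a Naive library, and all 5 were lower in Th1 than in Th17, by -4.81 to -8.68.

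In Th1 these genes did not go the way of *Cebpe*. *Cebpe* was below its Naive level there, while *Ltf* (log2 fold change 3.07), *Ngp* (5.10) and *Lcn2* (3.14) rose in Th1 versus Naive, to levels far under those of Th17. *Ltf* was not called there without Th17 replicate 1 (3.12), Th1 replicate 1 (3.36) or Th1 replicate 2 (2.89), and *Lcn2* without Naive replicate 1 (4.44). *Camp* had a log2 fold change of 2.90 with an edgeR adjusted p of 0.020, and *Mmp8* had 0.0619 and 0.0632 CPM, close to its 0.0587 and 0.0495 CPM in Naive.

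The primary granule genes *Mpo*, *Elane* and *Prtn3*, encoding myeloperoxidase, neutrophil elastase and proteinase 3, moved differently. *Mpo* had 251 and 159 CPM in Naive, 68.1 and 58.7 CPM in Th17, and 6.76 and 7.52 CPM in Th1. It fell in Th17 (-1.69) and in Th1 (-4.85) versus Naive. The fall in Th17 was not called without Naive replicate 1 (-1.33), Th17 replicate 1 (-1.798) or Th17 replicate 2 (-1.59), nor in a test against a fold change of 2. *Elane* had 57.3 and 29.6 CPM in Naive, 52.5 and 46.9 CPM in Th17, and 2.17 and 4.11 CPM in Th1. *Elane* and *Prtn3* fell in Th1 versus Naive (-3.84 and -3.93) and were lower in Th1 than in Th17 (-4.03 and -4.39). Their log2 fold changes in Th17 versus Naive, 0.19 and 0.47, were not called.

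Of 5 growth factor receptor genes, *Csf2rb*, the shared receptor chain for GM-CSF, IL-3 and IL-5, rose in Th17 (3.69), from 5.24 and 2.33 CPM to 37.8 and 62.3 CPM. *Csf3r* and *Csf1r*, the receptors for G-CSF and M-CSF and known targets of C/EBPα and PU.1, fell in Th1 versus Naive (-4.53 and -3.83) and were lower in Th1 than in Th17 (-6.16 and -4.3). Versus Naive, *Csf3r* was not called without Naive replicate 1 (-4.10), Th17 replicate 1 (-4.54), Th1 replicate 2 (-4.11) or Th1 replicate 1, which left the Th1 library with 0 counts, and *Csf1r* not without Th1 replicate 1 (-3.74). *Csf3r* in Th1 versus Th17 was not called without Th17 replicate 1 (-5.61). *Il6ra*, a receptor chain for the IL-6 that the Th17 cultures received, had 210 and 319 CPM in Naive, 149 and 97.0 CPM in Th17, and 51.1 and 79.3 CPM in Th1, and fell in Th1 (-2.02). This was not called without Naive replicate 2 (-1.69) or Th1 replicate 1 (-1.699). *Csf2ra* was not called in any comparison.

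Of 8 phagocyte effector genes, 7 rose in Th17 versus Naive. *S100a8* and *S100a9*, which together encode calprotectin, led them with log2 fold changes of 10.75 and 11.26. *Cd14* was one of the 7 and was not called without any single Naive or Th17 library (4.14 to 5.87). The NADPH oxidase genes parted. *Cybb* rose in Th17 (3.03) and fell in Th1 (-2.03) versus Naive, with 11.1 and 7.13 CPM in Naive, 72.6 and 77.4 CPM in Th17, and 2.66 and 1.71 CPM in Th1. The fall in Th1 was not called without Naive replicate 1 (-1.67), Th17 replicate 1 (-2.03) or Th1 replicate 2 (-1.78), in the model of the 4 libraries compared, or against a fold change of 2. *Ncf1* rose in both Th groups and was higher in Th1 than in Th17 (2.27), with 12.4 and 11.8 CPM in Naive, 64.2 and 49.1 CPM in Th17, and 236 and 310 CPM in Th1. Without Th17 replicate 2 the difference between Th1 and Th17 was not called (2.096).

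Of 8 acute phase and inflammatory genes, 5 rose in Th17 versus Naive, among them *Hp* (3.28), *Saa3* (8.30) and *Socs3* (2.50), the feedback inhibitor of IL-6 signalling. In Th1 versus Naive *Hp* fell (-3.31), *Socs3* rose (1.99), and *Nos2*, with 0 counts in both Naive libraries, rose to 1.08 and 0.695 CPM, at least 9.23-fold higher than a Naive level of 3 counts in each library, which was taken as the limit of detection. *Socs3* was not called in Th17 without Naive replicate 1 (2.199) or Th17 replicate 1 (2.27), nor in Th1 without Naive replicate 1 (1.68) or Th1 replicate 2 (1.72). *Nos2* was not called without either Naive library, Th17 replicate 1 or Th1 replicate 1 (edgeR adjusted p from 0.012 to 0.052). The other 2 genes that rose in Th17 were *Il6* and *Il1b*. Of these, *Il6* was not called without Naive replicate 1 (edgeR adjusted p = 0.012), which left the Naive library with 0 counts, and *Il1b* not without either Naive library (6.84 and 4.95) or Th17 replicate 2 (3.64).

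Of 4 genes that Gfi1 is known to repress, *Csf1*, *Id2* and *Cdkn1a* rose in Th1 versus Naive (6.20, 2.21 and 6.40), and *Id2* and *Cdkn1a* rose in Th17 (2.00 and 6.14). *Csf1*, the gene of M-CSF, was also higher in Th1 than in Th17 (5.14), with 355 and 262 CPM in Th1, 10.3 and 7.13 CPM in Th17, and 3.83 and 4.61 CPM in Naive. *Il7r* was not called. The levels of *Gfi1* itself differed by at most 1.56-fold between groups in the model.

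**Figure D5:**
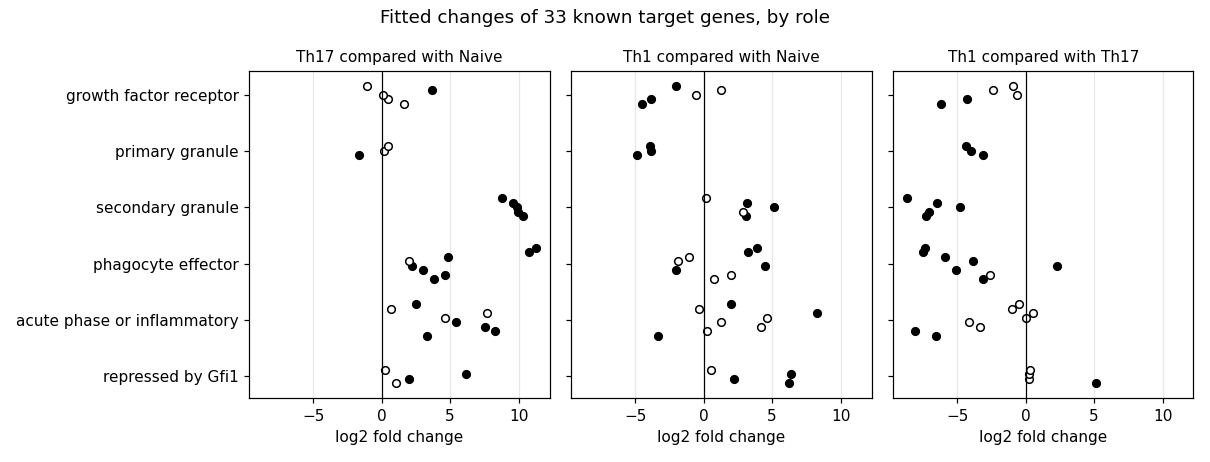
Fitted log2 fold changes of the 33 target genes by role in the 3 comparisons, with filled circles for genes called by edgeR and open circles for genes not called. The 5 secondary granule genes lie between 8.82 and 10.34 in Th17 versus Naive, and the 3 primary granule genes lie below -3.8 in Th1 versus Naive.

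Markers of other cell types moved with these genes. The 11 neutrophil markers in the files summed to 313 and 190 CPM in Naive, 2931 and 2812 CPM in Th17, and 63.7 and 74.3 CPM in Th1. All 11 were above 1 CPM in both Th17 libraries, against 3 in each Naive library and 7 and 8 in the Th1 libraries. Of the 3 markers that define the list, *Ly6g* was not analysed here, *S100a8* is a target gene above, and *Cxcr2* had 12.8 and 8.03 CPM in Th17 but 36.2 and 34.9 CPM in Th1, where *Cebpe* was lowest. The 9 macrophage markers in the files summed to 33.9 and 14.3 CPM in Naive, 238 and 802 CPM in Th17, and 13.1 and 13.7 CPM in Th1. Most of the Th17 sums came from a single gene, *Lyz2*, which reached 223 CPM in replicate 1 and 762 CPM in replicate 2. *Lyz2* is also a target gene. The macrophage list shares 3 of its 9 genes with the targets and 1 with the regulators. Among the defining macrophage markers, *Csf1r* had 5.34 and 11.7 CPM in Th17 and *C1qa* 0.352 and 1.70 CPM, with *C1qa* at 0 in Th1. The 8 markers of mast cells, basophils and eosinophils summed to 203 and 53.1 CPM in Naive, 280 and 616 CPM in Th17, and 73.9 and 61.3 CPM in Th1. Of their defining markers, *Mcpt8*, a basophil protease gene, had 7.59 and 1.19 CPM in Naive, 66.01 and 119 CPM in Th17, and 12.1 and 12.3 CPM in Th1, and *Fcer1a*, an IgE receptor gene, had 0.235 and 0.0495, 11.2 and 53.9, and 2.24 and 1.01 CPM. *Epx*, the eosinophil peroxidase gene, had 9.35 and 2.58 CPM in Naive, 11.4 and 15.9 CPM in Th17, and 0.201 and 0 CPM in Th1.

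The 6 dendritic cell markers summed to between 4.61 and 30.1 CPM, the 5 B cell markers to between 2.41 and 15.8 CPM, and the 4 markers of CD8 T and NK cells to between 6.71 and 26.98 CPM, with the defining markers *Siglech* at 0 in all Th libraries and *Ms4a1* and *Pax5* at 0 in Naive replicate 2. The part of such cells in the levels of *Cebpe*, *Spi1* and the target genes was not tested.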

How the data were processed

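The members and gene lists were chosen with earlier results of these data known. PolyA RNA was made into libraries by Smart-seq2. The deposited values are raw counts per gene, 1 file for each library. According to the submitters' processing notes and the methods, the authors aligned reads to mm10 with HISAT2 (2.2.1) and counted them with HTSeq (0.13.5), without normalization. The methods mention removal of duplicates and HTSeq defaults, whereas the supplementary code has no duplicate step and uses the reverse-strand option. The notes also name StringTie (2.1.7) and DESeq2 (1.34.0).

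The software was edgeR 4.0.16 with limma 3.58.1, run under R 4.3.3. The 13607 of 24223 genes passing filterByExpr were scaled by TMM and fitted together, with cell type as the model. Calls required a quasi-likelihood adjusted p (Benjamini-Hochberg, all genes) under 0.01 and a log2 fold change beyond 1 in either direction. These thresholds are those of the study, which tested with DESeq2. DESeq2 1.42.0 was an alternative. With 2 libraries against 2, an exact permutation test cannot give a p under 0.333. Replicates are described as biological, and the animals behind each are not given in the sources used here. Replicates of a group differed by more than sampling noise (chi-square per degree of freedom from 94.1 to 149). The limit of detection was 3 counts, or 0.0440 to 0.190 CPM in a single library. Poisson intervals cover counting error only, since reads are not independent molecules.

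From each list, genes were named in each comparison by size of change, at most 8 that were called and had more than 3 counts in 2 libraries, and others where a small group is described. Likeness used log2 CPM with a prior count of 2, and the 5 nearest genes for *Cebpe* and 3 for each other gene. Gene positions and exon lengths came from GENCODE on GRCm38. Alternatives were other size factors, filters on low counts, thresholds, thinning, replicate blocks, the 4 libraries compared alone and leaving out each library. *Cebpd*, *Cebpe* and *Spi1* had no promoter entry. Some genes that meet these rules are left unreported.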

Additional observations from a re-analysis of the deposited data

How the results depend on the processing

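Numbers of genes called depended on the setting more than directions did. For the 6 genes other than *Cebpe*, a test against a fold change of 2 called 1 in Th1 versus Naive, and DESeq2, no filter on low counts and an adjusted p under 0.05 each called 2 in Th1 versus Th17. For the regulators, the counts in Th17 versus Naive were 11 by DESeq2, 12 without the filter, 11 at an adjusted p under 0.05, 1 against a fold change of 2 and 8 in a model of the 4 libraries compared. In Th1 versus Naive, 4 were called against a fold change of 2. In Th1 versus Th17 they were 7 by DESeq2, 10 without the filter, 8 at an adjusted p under 0.05 and 5 from the 4 libraries. For the targets, at least 10 counts in every library left 9, 10 and 9 called in the 3 comparisons, since genes low in 1 group are removed, and the test against a fold change of 2 called 12 in Th1 versus Naive.

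Over all genes, Th17 versus Naive gave 1738 by DESeq2, 2154 without the filter, 343 with 10 counts in every library, 2063 at an adjusted p under 0.05 and 403 against a fold change of 2. For Th1 versus Naive these were 1928, 2259, 674, 2164 and 511, and for Th1 versus Th17 1824, 2232, 411, 2112 and 349. The genes fitted were 17846 by DESeq2 and without the filter, and 10943 with 10 counts in every library. They were 13607 at an adjusted p under 0.05 and against a fold change of 2, so the counts are not shares of the same total.

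Leaving out each library in turn gave 1 to 2, 1 to 3 and 1 to 2 of the 6 genes in the 3 comparisons, 1 to 6, 4 to 8 and 1 to 5 regulators, 17 to 21, 14 to 19 and 19 to 22 targets, and 319 to 885, 516 to 939 and 266 to 1016 of all genes. The lone library of a group is then assumed to vary like the others.

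With the replicate number as a block, edgeR called 2 and DESeq2 2 of the 6 genes in Th1 versus Th17. In Th17 versus Naive the block gave 9 regulators by edgeR and 11 by DESeq2, and in Th1 versus Th17 6 and 9. With the block in DESeq2, 1517, 1796 and 1635 of all genes were called. Same-numbered libraries did not deviate together in every pair of groups, with r of -0.23, 0.17 and 0.08 across genes. With 2 libraries per group, these values cannot decide whether the numbers pair the samples, since other differences between replicates can mask a shared one. Whether they are paired is therefore not known. Replicate 1 was the deeper library each time.

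*Spi1* in Th1 versus Naive was not called in the model of 4 libraries (-2.92, adjusted p = 0.013 by edgeR) or against a fold change of 2, and *Cebpa* was not called against a fold change of 2. *Cebpa* in Th1 versus Th17 was called by DESeq2 (-1.88), without the filter (-1.86), at an adjusted p under 0.05 and with the replicate block (-1.85). The cause was not tested. Signs turned only for *Cebpb* and *Cebpd*. Leaving out each library, *Cebpb* ranged from -0.021 to 0.90 in Th17 versus Naive, from -0.61 to 1.00 in Th1 versus Naive and from -0.98 to 0.58 in Th1 versus Th17, where DESeq2 gave 0.0044 and no filter 0.0068 against -0.01. It turned without Naive replicate 1, Th17 replicate 1 or either Th1 replicate. *Cebpd* in Th1 versus Th17 gave -0.062 by library size alone and ranged from -0.019 (without Th1 replicate 2) to 0.33 when each library was left out. Scaling by library size alone moved the median log2 fold change of all genes to -0.26 in Th1 versus Naive and -0.24 versus Th17, and the share of calls that were higher from 62.2% to 52.4% and from 48.8% to 36.5%. Depth limits *Cebpe* in Th1 most, where 4 counts were seen in replicate 2.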
